A study of Mus musculus with 6 samples.

Results

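The nuclear-encoded subunits of the mitochondrial respiratory chain and ATP synthase were followed in mouse neurons in culture, of the genotypes Tlr7-/- and wild type (WT). Tlr7 is a receptor that senses single-stranded RNA inside endosomes. Members were taken by gene symbol: the Nduf a, b, c, s and v subunits of complex I, Sdha to Sdhd of complex II, the Uqcr genes of complex III, the numbered Cox subunits of complex IV, and the Atp5 genes of complex V. The rule gave 83 of the 25814 genes listed, namely 37 for complex I, 4 for complex II, 8 for complex III, 18 for complex IV and 16 for complex V. Of these, 80 passed the filter on low counts. The other 3, Cox7b2, Cox8b and Cox8c, are isoform genes of complex IV known mainly from other tissues.

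Messenger RNA was sequenced in 3 Tlr7-/- and 3 WT libraries. All came from mixed primary neurons of cortex and hippocampus, on a C57BL/6 background, harvested after 18 days in vitro. Whether a replicate is its own culture or animal is not in the labels, so a p-value here reflects no more than the spread among these libraries, which may be technical. Nor do they say which part of Tlr7 was deleted.

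The respiratory chain passes electrons from NADH (at complex I) and succinate (at complex II) through complexes III and IV to oxygen. Complexes I, III and IV pump protons across the inner mitochondrial membrane, and complex V uses the proton gradient to make ATP. Except for complex II, each complex joins subunits made in the cytosol from nuclear genes with a few made inside mitochondria from mitochondrial DNA. Neurons draw most of the ATP for ion pumping and synaptic transmission from this pathway.

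Tlr7 itself had 3, 5 and 5 counts in Tlr7-/- replicates 1 to 3 and 4, 8 and 4 counts in WT replicates 1 to 3, too few for the filter, so the message does not check the genotype labels. Total counts were 23272450 to 25696625 per library. Neuronal markers (8 of 8 tested) summed to 5815 to 6183 CPM (counts scaled to a common library size) in Tlr7-/- libraries and 5582 to 5793 CPM in WT libraries. The Tlr7-/- libraries were not alike: replicates 2 and 3 carry a style of library name in the labels that differs from that of replicate 1 and of WT. They scored 40.7 and 38.5 on the first principal component (68.7% of the variance), and the other 4 libraries scored -25.4 to -14.9. The share of counts from the mitochondrial genome was 4.4% and 4.19% in these replicates and 2.6% to 3.14% in the other 4. No WT library has the second naming style, so for replicates 2 and 3 the naming style and the genotype cannot be told apart. Results are therefore given for all 3 Tlr7-/- libraries, for replicate 1, and for replicates 2 and 3.

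Promoters of many nuclear respiratory genes are known to carry sites for NRF-1, for ETS factors of the GABP (NRF-2) type and for YY1. RefSeq gave a start site for 66 of the 83 members, and both strands were searched from 250 bases before to 50 bases after each start (GRCm38.p6). The NRF-1 letters (GCGCA, any base, then GCGC) stood in 17 members (25.8%), against 5.19% of all genes with such a window. The GABP-type letters CCGGAAG stood in 16 members (24.2%), against 9.93%, and the YY1 letters AAGATGGC in 9 (13.6%), against 3.19%. These background shares are over 27025 genes, whether or not they passed the filter on low counts, which 80 of the 83 members did. The 3 stretches below show the palindromic form of the NRF-1 letters, which is one case of the letters above and stood in 5 members (7.58%, against 1.07% of all genes). Each shows 60 bases from before the RefSeq start, 5′ to 3′ on the gene's strand, with the palindrome in capitals. Its first base lies 50, 162 and 60 bases before the start in Atp5k, Cox6a1 and Ndufa11.
Atp5k (chr5:108434415-108434474, minus strand): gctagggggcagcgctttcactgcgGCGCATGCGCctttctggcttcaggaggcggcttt
Cox6a1 (chr5:115349086-115349145, minus strand): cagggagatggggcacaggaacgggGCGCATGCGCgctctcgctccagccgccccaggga
Ndufa11 (chr17:56717677-56717736, plus strand): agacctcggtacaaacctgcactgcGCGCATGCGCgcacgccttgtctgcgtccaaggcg
Across all 3 Tlr7-/- libraries the counts of these 3 genes lay below every WT library in CPM. The same held for 59 of the 80 tested members and for 16.2% of all genes tested. The motif matches describe letters, not bound sites. In replicates 2 and 3, the 17 members with the NRF-1 letters had a median log2 fold change of -0.41, and the 47 tested members without them had -0.43. After the removal of GC and length trends described below, these medians were 0.06 and -0.10.

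Most nuclear-encoded subunits had lower counts in Tlr7-/- neurons than in WT neurons, but with all 6 libraries no difference passed the threshold. Fold changes were fitted with edgeR and are on the log2 scale, Tlr7-/- over WT, with adjusted p-values from edgeR's quasi-likelihood test after Benjamini-Hochberg adjustment over 13947 genes. The median of the 80 tested members was -0.31, where all genes tested had 0.00. By complex, medians were -0.33 for I, -0.12 for II, -0.38 for III, -0.35 for IV and -0.22 for V. The fitted value was negative for 78 of 80 members. Of the members, 0 passed an adjusted p of 0.05, as did 0.0% of all genes, and the smallest adjusted p among members was 0.112. At an unadjusted p under 0.05, 53 members were lower and 0 higher, where 12.6% and 15.6% of all genes tested were. For 59 members every Tlr7-/- library was below every WT library (30 of complex I, 0 of II, 6 of III, 10 of IV and 13 of V), which held for 16.2% of all genes. No member had every Tlr7-/- library above every WT library, against 16.5% of all genes. DESeq2's Wald test called 18 members lower and 0 higher, beside 4.75% of all genes called lower, and limma-voom called 0.

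Library by library, the shift was mainly that of Tlr7-/- replicates 2 and 3. Relative to the WT mean, the median member stood at -0.10 in Tlr7-/- replicate 1, -0.44 in replicate 2 and -0.38 in replicate 3, on the log2 scale of CPM. In the WT libraries it stood at 0.00 in each. Replicate 1 was below every WT library for 61 of 80 members (background 32.2% of all genes), replicate 2 for 76 (41.5%) and replicate 3 for 77 (41.6%). Summed over members, CPM came to 12000, 9256 and 9843 in Tlr7-/- replicates 1 to 3, and to 12810, 12730 and 12780 in WT replicates 1 to 3. In bulk RNA, fewer cells of a type and less message per cell cannot be told apart.

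**Figure D1:**
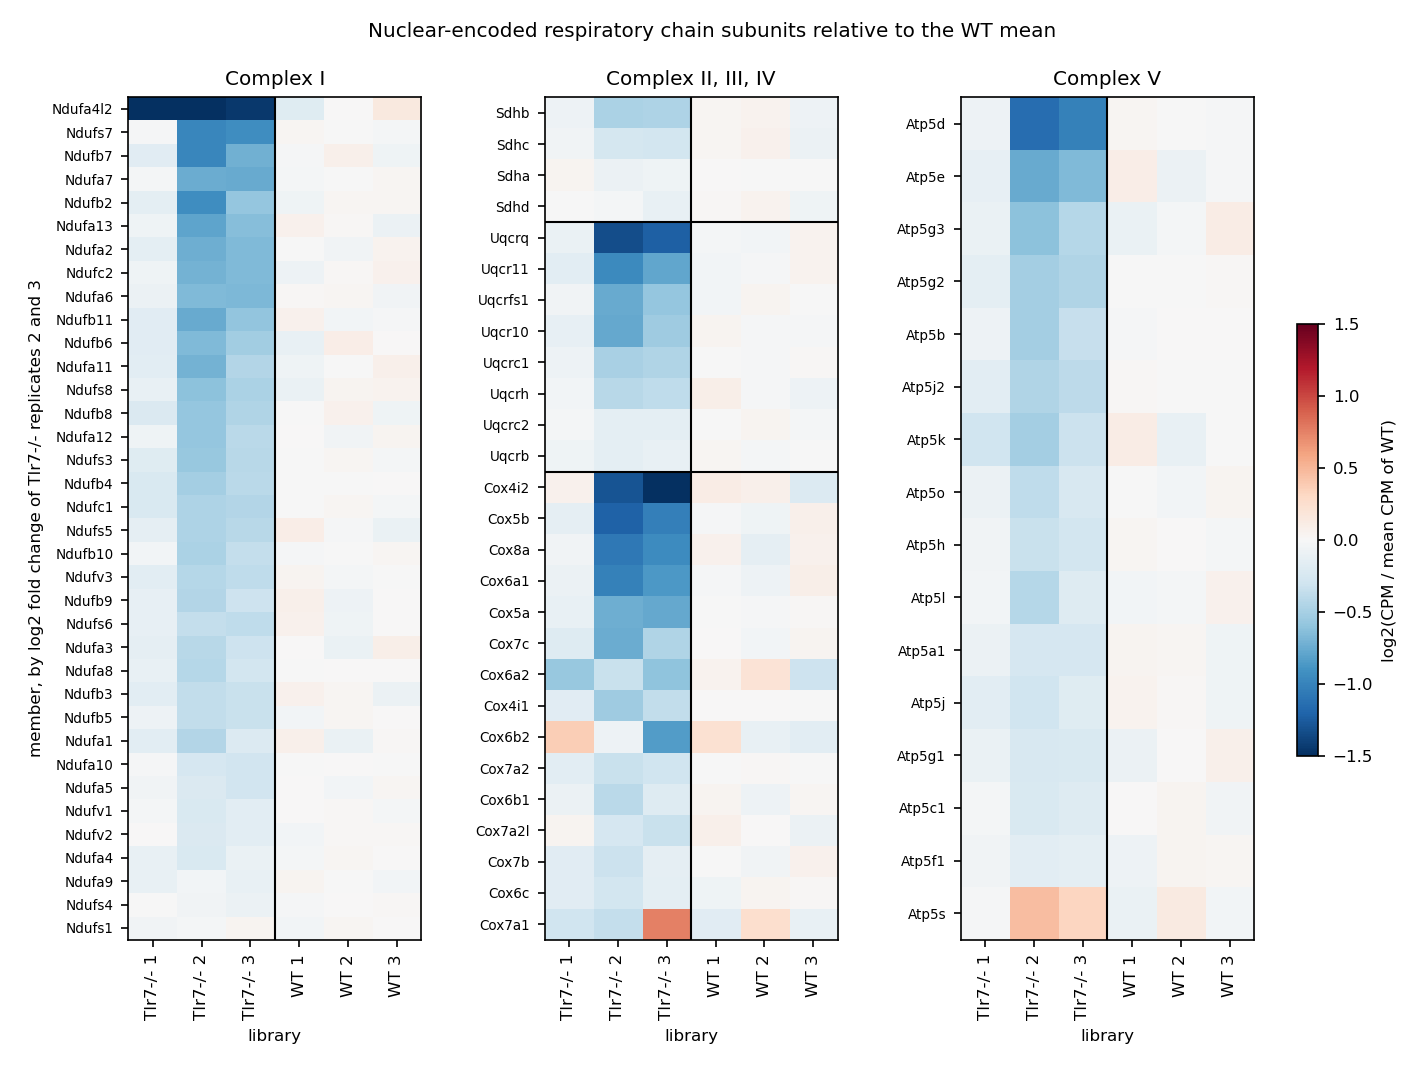
Each row is a member that passed the filter, except for 1 that is not reported by name, and each column is a library. Colour is log2 of its CPM over the mean CPM of the 3 WT libraries, from -1.5 (blue) to 1.5 (red), and rows are ordered within a complex by the fold change of Tlr7-/- replicates 2 and 3. Replicates 2 and 3 are blue in most rows, replicate 1 is paler, and Ndufa4l2 is blue in all 3 Tlr7-/- libraries.

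Tlr7-/- replicates 2 and 3 against WT gave 68 members lower and 1 higher at an adjusted p under 0.05 (edgeR's quasi-likelihood test). Among all genes 25.2% were called lower and 24.4% higher, and the median member had -0.41. With limma on log2(RPKM + 0.1) the calls over all genes were 2541 higher and 4412 lower, beside 3407 higher and 3508 lower here, and 75 members were lower. Both libraries were below every WT library for 75 members (34.4% of all genes) and above for 1 (34.0%).

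Tlr7-/- replicate 1 against WT gave 0 members in either direction, where 0.545% of all genes were called lower and 0.889% higher. The median member there had -0.10, 7 members were lower at an unadjusted p under 0.05 (7.23% of all genes were), and 75 of 80 fitted values were negative. DESeq2 and limma-voom called 0 members there too. With 1 library in the group, the fit assumes that it varies like the others. The 2 comparisons share the WT libraries. The difference itself, replicates 2 and 3 against replicate 1, was called for 42 members, all lower in replicates 2 and 3, where 16.6% of all genes were called lower and 15% higher. All 42 were among the 68. Replicates 2 and 3 enter both comparisons, so such overlap is partly built in. Over all genes, 2050 of the 2312 called lower in the difference were also called lower against WT. After the removal of trends described below, 14 members were lower in that difference (10.6% of all genes) and 0 higher (7.5%).

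**Figure D2:**
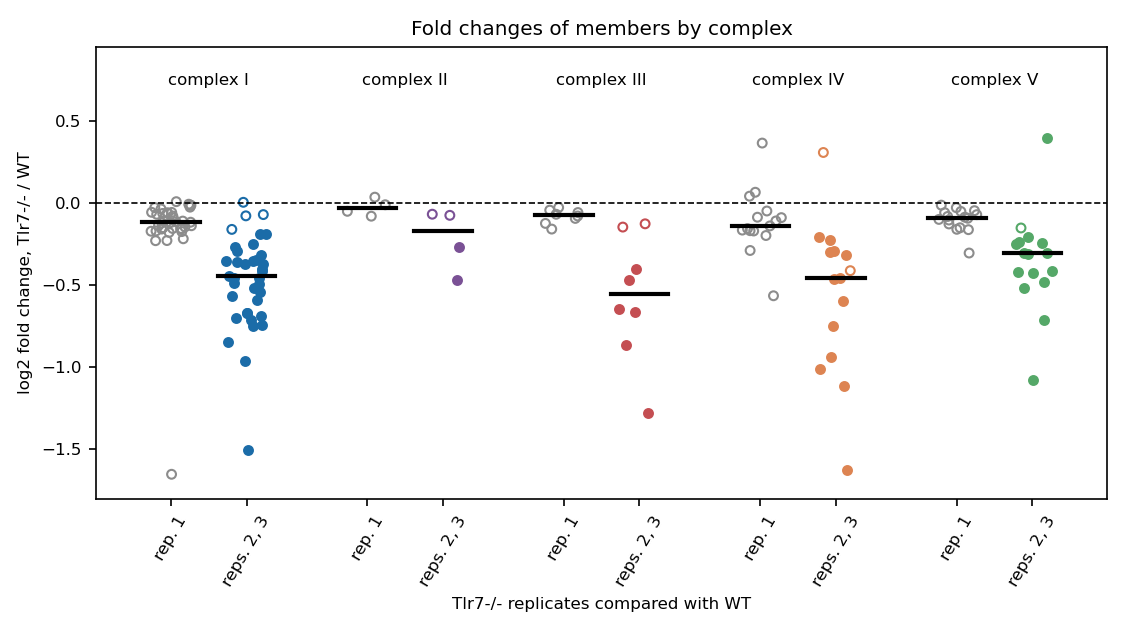
Log2 fold changes of the tested members over WT, by complex, for Tlr7-/- replicate 1 (grey) and for replicates 2 and 3 (coloured). Filled points passed an adjusted p of 0.05, bars are medians, and the dashed line is the median of all genes for replicates 2 and 3. Medians for replicates 2 and 3 run from -0.17 in complex II to -0.56 in complex III, before the removal of trends described below.

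Fold changes went with the base composition and length of the transcripts in the same libraries. For replicates 2 and 3 against WT, the rank correlation of log2 fold change with GC content was -0.53 over the 80 members and -0.56 over 13935 genes. With transcript length it was 0.31 over members and 0.44 over genes. These are correlations across genes within the same libraries, and genes are not independent replicates. Members are short: their median transcript has 849.5 bases, against 3109 bases over all genes tested, with GC contents of 51.5% and 50.5%. Within each range of GC content the median member lay below the median gene. These ranges do not hold length equal, and the part of either property in the members' shift was not tested. Up to 45% GC it was -0.17 (10 members) against 0.38, and over 55% GC it was -0.57 (23 members) against -0.33.

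When the GC and length trends of each library were removed, the median member in replicates 2 and 3 moved to -0.09 and that of all genes to 0.01. Over members, the rank correlation of these log2 fold changes became 0.25 with GC content and -0.38 with length. Over all genes it was 0.04 and -0.01, so among members removal left trends of the opposite sign. Then 23 members were lower (16.3% of all genes) and 3 higher (15.2%) than WT, by the same edgeR test. Of the 68 members that had been called lower, 22 were still called lower and 3, Ndufs6, Atp5j and Atp5k, were called higher. The median of replicate 1 moved to 0.03, and that of all 3 Tlr7-/- libraries to -0.05. Whether the trends arose in the cells or in library making was not tested. The sign turned for 29 of the 80 members in replicates 2 and 3, for 46 in replicate 1 and for 28 over all 3 Tlr7-/- libraries.

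**Figure D3:**
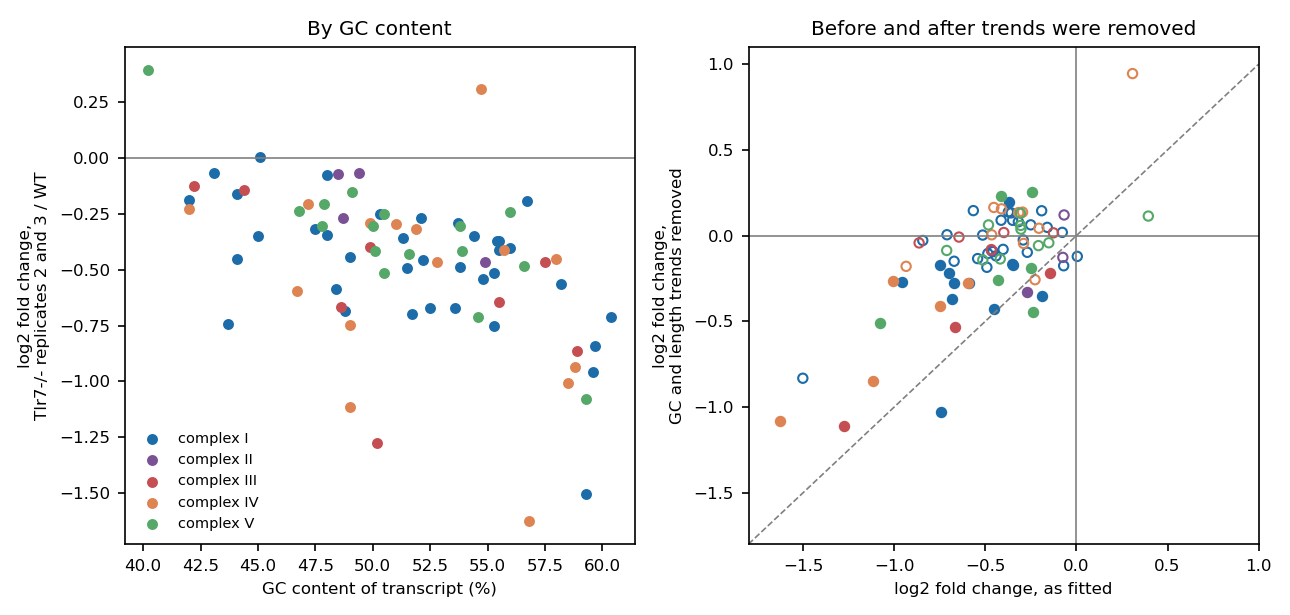
Left, log2 fold change of Tlr7-/- replicates 2 and 3 over WT against the GC content (%) of each member's transcript. Right, the same fold change as fitted and after removal of GC and length trends, with filled points for members called after removal and a dashed line where both are equal. Most points lie above the dashed line, and after removal Uqcrq, Cox5b, Cox4i2 and Ndufb2 are lowest. Ndufb2 lies below the dashed line, and its value after removal rests on a reference transcript of 4371 bases.

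Here and below, genes counted as fallen or risen were called at an adjusted p under 0.05 by edgeR. In complex I, the NADH dehydrogenase, 33 of 37 members fell in Tlr7-/- replicates 2 and 3, where 25.2% of all genes did. After the trends were removed 10 were called lower, where 16.3% of all genes were. Of the 7 genes of the catalytic core of complex I, 6 fell in replicates 2 and 3. Ndufs7, which encodes an iron-sulfur subunit close to the quinone site (ENSMUSG00000020153, chr10:80249121-80256794), had 67.6, 34.5 and 35.7 CPM in Tlr7-/- replicates 1 to 3 and 69.6, 68.1 and 67.1 CPM in WT replicates 1 to 3. Replicate 1 was within the WT range and replicates 2 and 3 were far below it. The log2 fold change of replicates 2 and 3 was -0.96 ± 0.07 (SE), with an adjusted p of 1.31e-05 by edgeR's quasi-likelihood test, and it was -0.27 after the trends were removed (adjusted p = 0.00882).

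Ndufs1, the largest core subunit and an iron-sulfur protein of the electron input arm, had 140.0, 142.9 and 149.2 CPM in Tlr7-/- replicates and 141.4, 148.7 and 146.7 CPM in WT replicates. The groups overlapped throughout, and the log2 fold change of replicates 2 and 3 was 0.00 ± 0.06 (SE, edgeR adjusted p = 0.956). Ndufs1 overlaps Eef1b2 on the other strand. Ndufv1, which carries the FMN that accepts electrons from NADH, had 132.7, 115.6 and 121.3 CPM against 135.7, 137.1 and 133.0 CPM in WT. It fell by 0.19 in replicates 2 and 3 (edgeR adjusted p = 0.02) and had 0.14 after the trends were removed. The call was lost without Tlr7-/- replicate 2 (-0.15) or without WT replicate 1 (-0.19) or 2 (-0.18). Ndufs3 and Ndufs8, of the module that reaches the quinone site, fell by 0.49 and 0.54 in replicates 2 and 3 (edgeR adjusted p = 0.000308 and 0.000413). Neither was called after the trends were removed.

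The accessory subunits of complex I surround the core and stabilise it. Of the 30 tested, 27 fell in replicates 2 and 3 (25.2% of all genes), with a median of -0.45. After the trends were removed 8 were called lower and 1 higher (16.3% and 15.2% of all genes), with a median of -0.10. Among the largest changes as fitted, Ndufb7 had 61.1, 34.9 and 41.8 CPM in Tlr7-/- replicates and 68.0, 72.4 and 66.0 CPM in WT replicates. Ndufa7 had 105.1, 63.9 and 63.2 CPM against 105.1, 106.9 and 108.9 CPM in WT. In Ndufb7 replicate 1 was between WT and the low replicates 2 and 3, and in Ndufa7 it equalled the lowest WT library. The log2 fold changes of replicates 2 and 3 were -0.84 and -0.75. With the trends removed, Ndufb7 had -0.03 and Ndufa7 had -0.17 (edgeR adjusted p = 0.816 and 0.0436).

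Ndufb4, Ndufc1 and Ndufb8 had, beside Ndufa4l2, the smallest p-values of complex I over all 6 libraries, and in each of them all 3 Tlr7-/- libraries lay below WT. Ndufb4 had 72.8, 59.8 and 64.4 CPM in Tlr7-/- replicates and 85.1, 85.2 and 85.7 CPM in WT replicates, a log2 fold change over all libraries of -0.38 ± 0.09 (SE). Ndufc1 had 39.5, 33.5 and 34.2 CPM against 46.2, 47.5 and 45.3 CPM in WT, or -0.37 ± 0.09. Ndufb8 had 115.6, 90.04 and 98.1 CPM against 134.2, 140.2 and 128.9 CPM in WT, or -0.41 ± 0.10. The edgeR adjusted p of each was 0.116, and only Ndufc1 was still called in replicates 2 and 3 after the trends were removed (-0.43, adjusted p = 0.00235). Ndufb2 was among the lowest then, at -1.03, but its reference transcript has 4371 bases, so its length correction rests on that annotation, and the gene overlaps Braf on the other strand. Ndufs4, Ndufa9 and Ndufa4 were not called in replicates 2 and 3, with log2 fold changes of -0.07, -0.08 and -0.16.

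Complex II, succinate dehydrogenase, shares a reaction with the citric acid cycle and is encoded by nuclear genes alone. Its median as fitted was the one nearest 0, at -0.17 in replicates 2 and 3. For 0 of its 4 members were all Tlr7-/- libraries below WT, which held for 16.2% of all genes. So few members do not set complex II apart by this count. With the trends removed, the medians in replicates 2 and 3 were -0.105 for I, -0.108 for II, -0.0625 for III, -0.046 for IV and -0.0504 for V. Complex II then was no longer nearest 0. Its transcripts had a median of 2065.5 bases, against 849.5 bases over all members. Sdha, the flavoprotein that oxidises succinate, had 374.3, 343.6 and 349.8 CPM in Tlr7-/- replicates and 367.0, 364.4 and 364.1 CPM in WT replicates. Replicate 1 was above WT and replicates 2 and 3 were below it, and for replicates 2 and 3 the fit gave -0.07 ± 0.05 (SE, edgeR adjusted p = 0.261). Sdhb, the iron-sulfur subunit, had 144.9, 110.2 and 111.5 CPM against 156.4, 158.4 and 144.7 CPM in WT.

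Sdhb thus was low in replicates 2 and 3 and just inside the WT range in replicate 1, and it fell by 0.47 in replicates 2 and 3 (edgeR adjusted p = 0.000298). The value was -0.09 after the trends were removed (adjusted p = 0.252). Of the membrane anchors, Sdhc had 103.0, 88.8 and 88.2 CPM against 108.8, 111.2 and 99.97 CPM in WT and fell by 0.27 (edgeR adjusted p = 0.00772). It was still called after the trends were removed, at -0.33. Sdhd had 108.0, 107.0 and 100.5 CPM against 109.7, 112.9 and 103.7 CPM in WT, which overlapped, and was not called (-0.07, edgeR adjusted p = 0.402).

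In complex III, the cytochrome bc1 complex, 6 of 8 members fell in replicates 2 and 3 (25.2% of all genes), with a median of -0.56. After the trends were removed 3 were called lower (16.3% of all genes), with a median of -0.06. Uqcrq, a small subunit next to cytochrome b (ENSMUSG00000044894, chr11:53427922-53430831), had 133.7, 56.9 and 60.9 CPM in Tlr7-/- replicates and 140.4, 139.2 and 148.3 CPM in WT replicates. Replicate 1 was slightly below WT, and replicates 2 and 3 were far lower. Their log2 fold change was -1.28 ± 0.07 (SE, edgeR adjusted p = 3.63e-06), or 58.7% lower, the smallest p of any member in this comparison. After the trends were removed it was -1.11 (edgeR adjusted p = 2.16e-05). Replicates 2 and 3 differed from replicate 1 by -1.18 (adjusted p = 3.49e-05).

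Uqcrfs1, the Rieske iron-sulfur protein that hands electrons to cytochrome c1, had 127.6, 78.4 and 89.0 CPM in Tlr7-/- replicates and 129.5, 137.0 and 131.9 CPM in WT replicates. Replicate 1 was just below the lowest WT library, and the log2 fold change of replicates 2 and 3 was -0.67 as fitted and -0.53 after the trends were removed (edgeR adjusted p = 8.76e-05 and 0.000876). Uqcr11, another small subunit, had 151.0, 87.2 and 98.1 CPM against 164.3, 166.4 and 175.0 CPM in WT. Its fitted value of -0.86 became -0.04 (edgeR adjusted p = 2.47e-05 and 0.622). Uqcr10, a small membrane subunit, had -0.65 as fitted and -0.01 after removal.

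Uqcrc1 and Uqcrc2 are the large core proteins on the matrix side. Uqcrc1 had 222.7, 167.8 and 172.4 CPM in Tlr7-/- replicates and 234.1, 233.2 and 238.3 CPM in WT replicates, and it fell by 0.47 in replicates 2 and 3 (edgeR adjusted p = 0.000144). With the trends removed it had -0.08 and was not called (adjusted p = 0.266). Uqcrc2 had 222.2, 204.6 and 204.6 CPM against 225.4, 232.6 and 221.3 CPM in WT, with -0.15 in replicates 2 and 3, just outside the threshold (edgeR adjusted p = 0.0511), and -0.22 after the trends were removed (adjusted p = 0.0167). Uqcrb, which contacts the quinone pocket, was not called (-0.13, edgeR adjusted p = 0.111).

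In complex IV, cytochrome c oxidase, 13 of 15 tested members fell in replicates 2 and 3 (25.2% of all genes). After the trends were removed 5 were called lower (16.3% of all genes). Cox5b, which binds zinc on the matrix side (ENSMUSG00000061518, chr1:36691449-36693681), had 214.1, 102.0 and 115.6 CPM in Tlr7-/- replicates and 233.0, 226.2 and 248.3 CPM in WT replicates. All 3 Tlr7-/- libraries were below WT, replicates 2 and 3 by far the most. The log2 fold change of these was -1.12 ± 0.07 (SE, edgeR adjusted p = 1.18e-05) and stayed at -0.85 after the trends were removed (adjusted p = 0.000131). Cox5a, its neighbour on the matrix side, had 135.2, 87.5 and 85.9 CPM against 145.8, 144.6 and 147.2 CPM in WT. It fell by 0.75 as fitted and by 0.41 after removal (edgeR adjusted p = 1.9e-05 and 0.000592).

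Cox8a, a small membrane subunit, had 403.8, 199.1 and 216.4 CPM in Tlr7-/- replicates and 436.6, 381.2 and 435.0 CPM in WT replicates. Replicate 1 was within the WT range, and replicates 2 and 3 had a log2 fold change of -1.01 (edgeR adjusted p = 2.01e-05), which became -0.27 after the trends were removed. Cox6a1 had 349.5, 184.3 and 203.8 CPM against 367.6, 351.3 and 394.0 CPM in WT, a fall of 0.94 (edgeR adjusted p = 2.08e-05). After removal it had -0.18 and was not called. Cox7c had 129.5, 88.3 and 108.2 CPM against 149.1, 144.0 and 152.4 CPM in WT, with all Tlr7-/- libraries below WT. Its fall was 0.60 in replicates 2 and 3 (edgeR adjusted p = 0.000435) and 0.28 after removal (adjusted p = 0.0394). Cox4i1, which binds ATP and overlaps Gm20388 on the same strand, fell by 0.45 as fitted but had 0.16 after removal. Cox7a2, Cox6b1, Cox7a2l and Cox7b fell by 0.32, 0.30, 0.29 and 0.23 in replicates 2 and 3 (edgeR adjusted p = 0.00125, 0.00897, 0.00579 and 0.0241), and 0 of these 4 were called after removal. Without Tlr7-/- replicate 2 the calls of Cox6b1 (-0.19) and Cox7b (-0.13) were lost, and that of Cox7b also without WT replicate 1 (-0.24) or 3 (-0.20).

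In complex V, the ATP synthase, 14 of 16 members fell in replicates 2 and 3 and 1 rose (25.2% and 24.4% of all genes). After the trends were removed 4 were called lower and 2 higher (16.3% and 15.2% of all genes). Atp5d, the delta subunit of the rotor stalk (ENSMUSG00000003072, chr10:80138632-80145818), had 246.3, 117.8 and 129.1 CPM in Tlr7-/- replicates and 265.4, 259.7 and 256.9 CPM in WT replicates. Replicate 1 was a little below WT, and replicates 2 and 3 were far below it. Their log2 fold change was -1.08 ± 0.06 (SE, edgeR adjusted p = 6.18e-06) and -0.51 after the trends were removed (adjusted p = 0.000342). Atp5d overlaps Cbarp on the other strand.

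The catalytic head has alpha and beta subunits. Atp5b, the beta subunit, which holds the catalytic sites, had 1213, 892.3 and 1001 CPM in Tlr7-/- replicates and 1260, 1281 and 1281 CPM in WT replicates. Atp5a1, the alpha subunit, had 1033, 922.9 and 921.4 CPM against 1125, 1116 and 1049 CPM in WT. In both genes all 3 Tlr7-/- libraries were below WT, and they fell by 0.43 and 0.25 in replicates 2 and 3 (edgeR adjusted p = 0.000487 and 0.00524). Both were still called after the trends were removed, at -0.26 and -0.19. Atp5e, the epsilon subunit of the stalk, had 67.7, 43.65 and 46.6 CPM against 78.96, 69.6 and 73.3 CPM in WT and fell by 0.71 (edgeR adjusted p = 9.44e-05), but had -0.09 after removal. The 5 genes of the F1 part all fell in replicates 2 and 3 (25.2% of all genes), and 3 of them were called lower after removal (16.3%).

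The peripheral stalk, which holds the head still, has 4 genes here, of which 3 fell in replicates 2 and 3 (25.2% of all genes). Atp5f1 was not called (-0.15, edgeR adjusted p = 0.0596), and Atp5h, Atp5j and Atp5o fell by 0.31, 0.24 and 0.31 (0.06, 0.25 and 0.13 after the trends were removed). Their median after removal was 0.09, and Atp5j was higher at 0.25 (edgeR adjusted p = 0.0119). Atp5j overlaps Gabpa on the other strand. Atp5o overlaps Itsn1 on the other strand and Cryzl1 and Donson on the same strand. Atp5k, a subunit at the dimer interface, had 64.8, 56.0 and 64.0 CPM in Tlr7-/- replicates and 86.3, 74.0 and 79.6 CPM in WT replicates. All 3 Tlr7-/- libraries were below WT, replicate 1 with a log2 fold change of -0.30, yet for replicates 2 and 3 the fitted -0.41 became 0.23 after removal. Atp5j2, another membrane subunit, fell by 0.42 (edgeR adjusted p = 0.000317) and had -0.14 after removal. Atp5s, a coupling factor that is not a structural subunit, had 10.7, 14.9 and 13.5 CPM against 10.1, 11.9 and 10.5 CPM in WT. It was the member that rose, by 0.39 in replicates 2 and 3 (edgeR adjusted p = 0.0204), and was not called after removal (0.11). The call was also lost without Tlr7-/- replicate 2 (0.33, edgeR adjusted p = 0.112) or WT replicate 1 (0.34, 0.067).

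**Figure D4:**
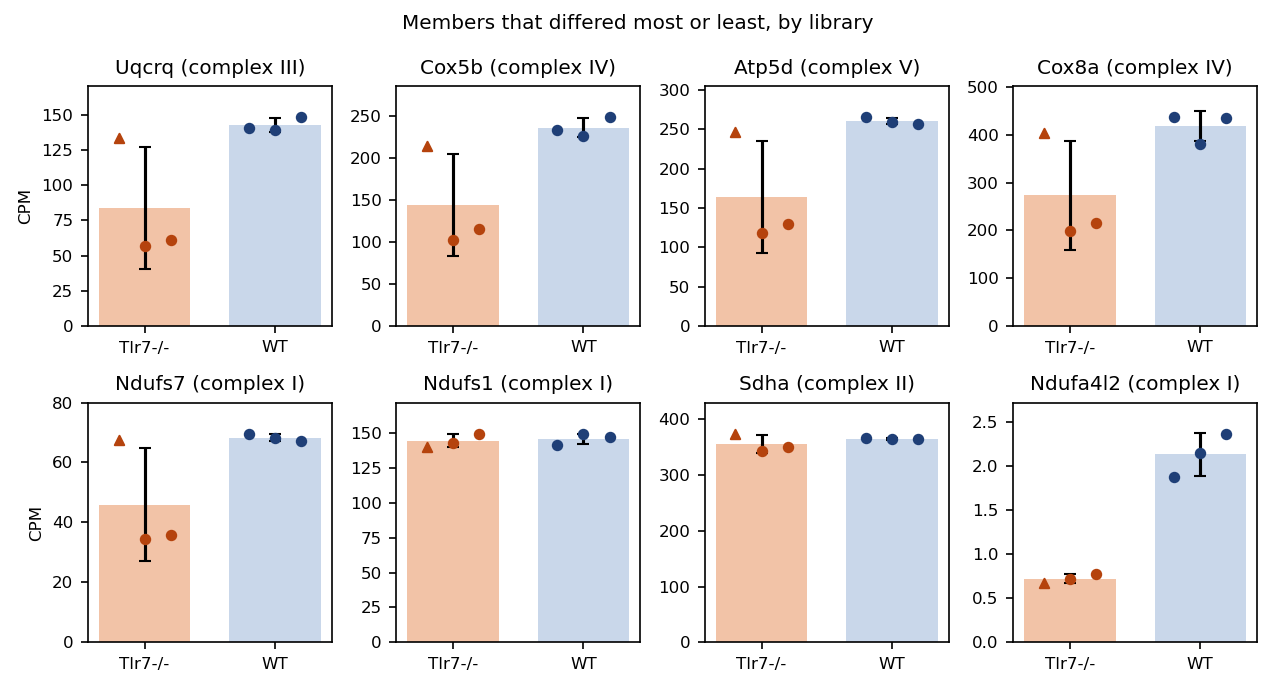
CPM of 8 members by library, with bars for the mean and error bars for the SD over 3 libraries of each genotype. Triangles are Tlr7-/- replicate 1 and circles the other libraries. In Uqcrq, Cox5b, Atp5d, Cox8a and Ndufs7 the triangle sits near WT above the other 2 Tlr7-/- libraries, in Ndufs1 and Sdha all libraries are close, and in Ndufa4l2 all 3 Tlr7-/- libraries are low.

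Several subunits are made from alternative isoform genes, of which one is usually the main form in a tissue. Ndufa4l2, a hypoxia-responsive relative of Ndufa4 (ENSMUSG00000040280, chr10:127514967-127517154), was the member with the smallest p over all 6 libraries. It had 17, 17 and 19 counts in Tlr7-/- replicates and 48, 50 and 58 counts in WT replicates, or 0.674, 0.718 and 0.777 CPM against 1.88, 2.14 and 2.36 CPM. All 3 Tlr7-/- libraries were alike and below WT. The log2 fold change was -1.55 ± 0.23 (SE) over all libraries (edgeR adjusted p = 0.112), -1.65 in replicate 1 (0.074) and -1.502 in replicates 2 and 3 (0.00228). After the trends were removed it was -1.05 over all libraries and -0.83 in replicates 2 and 3 (edgeR adjusted p = 0.159 and 0.0559). Counts are few, and the gene overlaps Shmt2, which is far more abundant, on the other strand. Ndufa4, which despite its name is now counted with complex IV, had 239.5, 220.4 and 242.2 CPM against 253.0, 263.7 and 258.7 CPM in WT. As TPM (a level scaled for transcript length), Ndufa4l2 stood at 0.188%, 0.218% and 0.214% of Ndufa4 in Tlr7-/- replicates and at 0.496%, 0.543% and 0.61% in WT replicates.

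Cox4i2, the hypoxia-responsive partner of Cox4i1, had 41, 15 and 9 counts in Tlr7-/- replicates and 43, 38 and 33 counts in WT replicates. Replicate 1 was within the WT range and replicates 2 and 3 were below it, at -1.63 ± 0.35 on the log2 scale (SE; edgeR adjusted p = 0.00432) and -1.08 after the trends were removed (adjusted p = 0.043). Cox6a2, the form known from heart and skeletal muscle, had 7.73, 9.03 and 7.53 CPM against 11.9, 13.2 and 9.24 CPM in WT. All 3 Tlr7-/- libraries were below WT, and it fell by 0.47 in replicates 2 and 3 (edgeR adjusted p = 0.0433), a call that was lost when any library of that comparison but WT replicate 3 was left out. After the trends were removed it had 0.0043 (adjusted p = 0.986 by edgeR). Cox7a1, another muscle form, ranged from 0.76 to 1.64 CPM in Tlr7-/- replicates and from 0.861 to 1.16 CPM in WT replicates, and Cox6b2, known from testis, from 2.66 to 6.14 CPM in Tlr7-/- and from 4.28 to 5.59 CPM in WT replicates. Neither was called.

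The muscle and testis forms were minor everywhere. By TPM, Cox6a2 reached 1.86% to 4.12% of Cox6a1 in Tlr7-/- libraries and 1.97% to 3.15% in WT libraries, and Cox7a1 0.728% to 1.67% of Cox7a2 in Tlr7-/- against 0.714% to 0.941% in WT. Cox7a2l, which helps join complexes III and IV into supercomplexes, was at 63.9% to 74.7% of Cox7a2 in Tlr7-/- libraries and 61.9% to 69.3% in WT libraries. Among the genes for the rotor ring of complex V, which encode the same mature protein, Atp5g3 had the highest TPM. Atp5g1 was at 14.8% to 19.0% of Atp5g3 in Tlr7-/- libraries and 14.3% to 15.1% in WT libraries, and Atp5g2 at 24.5% to 27.1% in Tlr7-/- against 23.7% to 26.9% in WT. The 3 genes fell by 0.24, 0.48 and 0.51 (Atp5g1, Atp5g2 and Atp5g3) in replicates 2 and 3, with edgeR adjusted p-values of 0.012, 0.000156 and 0.000748. The call of Atp5g1 was lost without WT replicate 2 (-0.24). With the trends removed, only Atp5g1 was called, at -0.44 (edgeR adjusted p = 0.000658), while Atp5g2 had 0.06 and Atp5g3 -0.14 (adjusted p = 0.415 and 0.228). As with Ndufb2, the transcript used for Atp5g1 is long, at 4715 bases.

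Of the members below the filter, Cox7b2 had 4, 1 and 1 counts in Tlr7-/- replicates and 4, 6 and 1 in WT replicates. Cox8b had 0, 1 and 4 counts against 0, 0 and 1 in WT. Cox8c had 0 counts in all 6 libraries, where 0 allows up to 3 counts per library at 95% confidence by counting error.

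**Figure D5:**
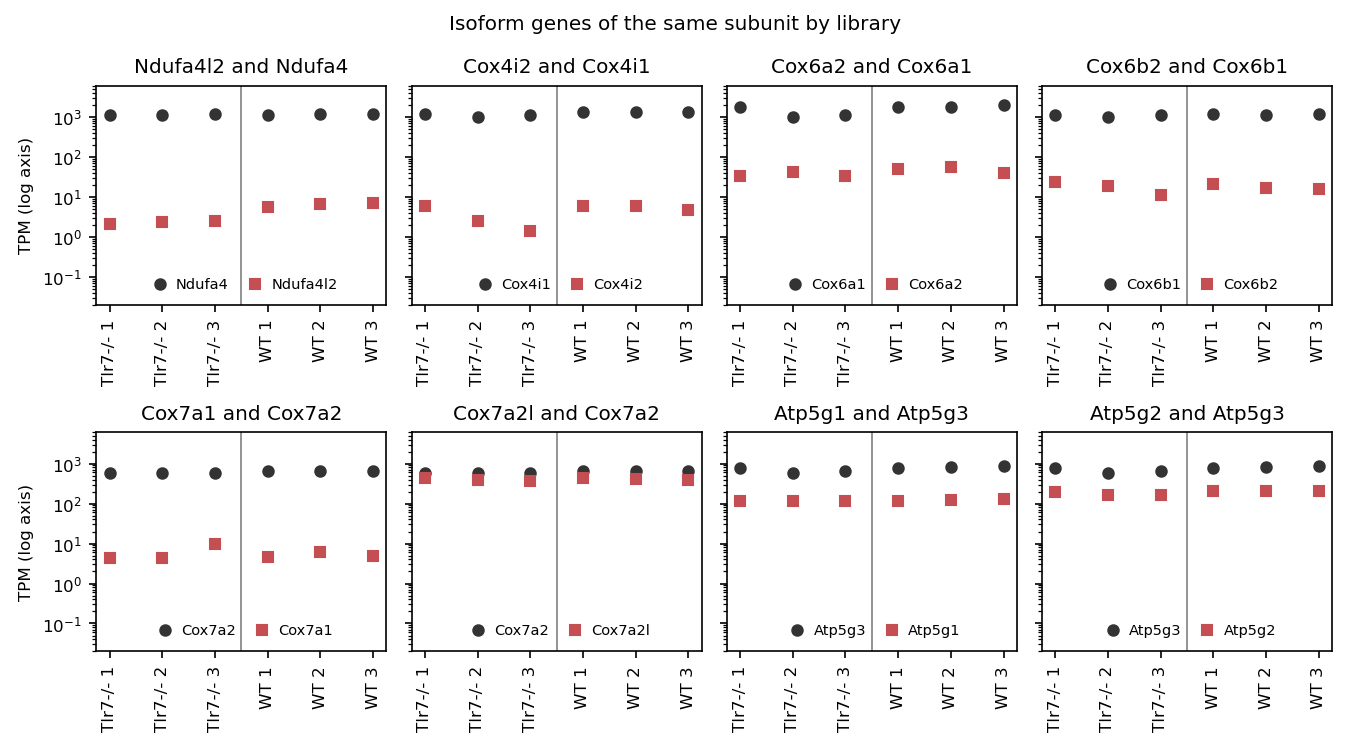
TPM on a log axis for 8 pairs of isoform genes in each of the 6 libraries, with the main form as black circles and the other as red squares. Ndufa4l2 is lower in all 3 Tlr7-/- libraries than in WT, and Cox4i2 is lower in Tlr7-/- replicates 2 and 3. Ndufa4 overlaps in TPM, although in CPM all 3 Tlr7-/- libraries were below WT.

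Levels ranged widely within each complex, and genes were ordered by their mean TPM in WT. Complex IV had the highest member, Cox8a, at 1511 ± 557 TPM in Tlr7-/- and 2183 ± 169 TPM in WT libraries (SD, n = 3 each), followed by Atp5b of complex V at 1642 ± 188 TPM in Tlr7-/- and 1894 ± 19 TPM in WT libraries. In Tlr7-/- libraries the order of these 2 was the other way, within their spread. Medians over tested members in Tlr7-/- and WT libraries were 203.7 and 226.7 TPM in complex I and 292.8 and 305.2 TPM in complex II. They were 363.1 and 370.5 TPM in complex III, 399.1 and 421.0 TPM in complex IV, and 376.8 and 512.5 TPM in complex V. The highest members of the other complexes were Ndufa4 (complex I by symbol), at 1143 ± 53 TPM in Tlr7-/- and 1180 ± 24 TPM in WT libraries, Uqcr11 (complex III), at 762 ± 197 TPM in Tlr7-/- and 1079 ± 39 TPM in WT libraries, and Sdhb (complex II), at 325 ± 38 TPM in Tlr7-/- and 382 ± 18 TPM in WT libraries. The lowest were Ndufa4l2, Sdhc, Uqcrq, Cox8c and Atp5s, by mean TPM in WT. TPM moves with all other genes, and mitochondrially encoded subunits alone summed to 79930, 128600 and 125100 TPM in Tlr7-/- replicates and 68300, 80290 and 83420 TPM in WT replicates.

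These mitochondrially encoded subunits did not fall in replicates 2 and 3, where 25.2% of all genes fell and 24.4% rose. Of 13 genes, 11 rose and 0 fell in replicates 2 and 3, with a median log2 fold change of 0.59, and 0 were called in replicate 1. The gene mt-Atp6, a proton channel subunit of complex V, had 1208, 3173 and 3024 CPM in Tlr7-/- replicates and 1178, 1548 and 1424 CPM in WT replicates. Its log2 fold change in replicates 2 and 3 was 1.16 ± 0.10 (SE, edgeR adjusted p = 6.57e-05) and 0.72 after the trends were removed. The gene mt-Nd4l of complex I had 181.6, 355.2 and 383.3 CPM against 132.9, 165.7 and 185.3 CPM in WT, and rose by 1.20 (edgeR adjusted p = 0.000273), or by 1.42 after removal. For mt-Co1, the catalytic subunit of complex IV, the value was 0.30 (edgeR adjusted p = 0.00764), and -0.0029 after removal. After removal 4 of the 13 were higher (15.2% of all genes) and 1, mt-Atp8, which overlaps mt-Atp6, lower (16.3%). WT replicate 1 was below the other WT libraries for all 13 genes, so WT libraries differed among themselves here.

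Respiratory chain genes whose symbols the rule does not match gave 4 of 6 that fell in replicates 2 and 3 and 0 that rose. Their median was -0.41, and 25.2% of all genes fell and 24.4% rose. With removal, 4 were lower and 1 higher (16.3% and 15.2% of all genes), and 2 of these were lower in both fits. The gene that turned, 2010107E04Rik, a small ATP synthase subunit, had -0.27 as fitted and 0.25 after removal (edgeR adjusted p = 0.00675 and 0.0147). Ndufab1, the acyl carrier protein of complex I, had 71.0, 39.0 and 43.0 CPM in Tlr7-/- replicates and 72.2, 80.8 and 77.04 CPM in WT replicates, a log2 fold change of -0.90 (edgeR adjusted p = 3.28e-05), or -1.07 after removal. Cyc1, the cytochrome c1 of complex III, fell by 0.55 and Atpif1, an inhibitor of ATP hydrolysis by complex V, by 0.56 (edgeR adjusted p = 0.00013 and 0.000114). With the trends removed Cyc1 had -0.23 and was still called, and Atpif1 had -0.02 and was not.

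Of 48 tested assembly factors, 17 fell and 5 rose in replicates 2 and 3, with a median of -0.18, where 25.2% of all genes fell and 24.4% rose. After the trends were removed 9 were lower and 1 higher, where 16.3% and 15.2% of all genes were. Coa6, needed to deliver copper to complex IV, fell by 1.01 as fitted and by 0.76 after removal (edgeR adjusted p = 0.000426 and 0.00356). Tmem70, needed to build complex V, fell by 0.41 in both fits (edgeR adjusted p = 0.00144 and 0.00241). Dmac1, a complex I assembly protein, fell by 0.53 and was not called after removal.

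Among 16 genes of the citric acid cycle and pyruvate dehydrogenase, 8 fell and 1 rose in replicates 2 and 3, with a median of -0.16, beside the 25.2% and 24.4% of all genes. After removal 3 were lower and 1 higher, beside 16.3% and 15.2%. Fh1, the fumarase that follows complex II in the cycle, had 75.5, 67.1 and 70.1 CPM in Tlr7-/- replicates and 88.4, 88.4 and 82.5 CPM in WT replicates. All 3 Tlr7-/- libraries were below WT, and it fell by 0.33 in replicates 2 and 3 (edgeR adjusted p = 0.00225) and by 0.39 after removal. Mdh2 fell by 0.39 and Dld rose by 0.41 (edgeR adjusted p = 0.000435 and 0.00145), and neither was called after removal.

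Of 13 regulators of mitochondrial gene transcription, 2 fell and 3 rose in replicates 2 and 3 (25.2% and 24.4% of all genes did), and 0 were called after the trends were removed. Esrra, a nuclear receptor that acts on many respiratory genes, had 28.7, 15.5 and 18.9 CPM in Tlr7-/- replicates and 30.4, 30.0 and 30.9 CPM in WT replicates. Its log2 fold change of -0.82 in replicates 2 and 3 (edgeR adjusted p = 0.000163) became -0.09. Gabpa, the DNA-binding part of GABP, rose by 0.36 (edgeR adjusted p = 0.0202) and had -0.09 after removal. Yy1 was not called (0.17, edgeR adjusted p = 0.0562).

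Markers of other cell types moved in the same libraries. Oligodendrocyte-lineage markers (7 of 7 tested) summed to 522 to 785 CPM in Tlr7-/- libraries and 981 to 1043 CPM in WT libraries. In replicates 2 and 3, 6 of 7 fell, and among all genes 25.2% fell and 24.4% rose. With the trends removed, 6 of the oligodendrocyte-lineage markers were called lower (16.3% of all genes), and 5 were called in both fits. Olig1 was called only as fitted and Pdgfra only after removal. Astrocyte markers (5 of 5 tested) summed to 2753 to 3913 CPM in Tlr7-/- and 3424 to 3666 CPM in WT libraries. Of the neuronal markers 5 rose and 2 fell in replicates 2 and 3, while 2 neuronal markers rose and 1 astrocyte marker fell in replicate 1. In replicates 2 and 3 the astrocyte markers Aqp4 and Slc1a2 rose by 0.67 and 0.37 and Aldh1l1 fell by 0.30 (edgeR adjusted p = 0.000404, 0.000435 and 0.0039). With the trends removed, 0 astrocyte markers were called higher and 2 lower, Aldh1l1 (-0.24) and Slc1a3 (-0.22). Aqp4 then had 0.21 and Slc1a2 -0.14, and neither was called. Of the neuronal markers, 2 were then higher and 2 lower, beside 15.2% and 16.3% of all genes. The microglial marker C1qa had 5, 88 and 64 counts in Tlr7-/- replicates and 2, 2 and 25 counts in WT replicates, and rose by 2.99 in replicates 2 and 3 (edgeR adjusted p = 0.0219). The other microglial marker tested, Csf1r, had 67, 75 and 56 counts in Tlr7-/- replicates and 59, 35 and 153 counts in WT replicates. It was not called in replicates 2 and 3 (-0.30, edgeR adjusted p = 0.723). The muscle marker Myh7 had 158, 64 and 82 counts in Tlr7-/- replicates and 127, 117 and 126 counts in WT replicates. Myh7 fell by 0.73 in replicates 2 and 3 (edgeR adjusted p = 0.00651). The other muscle marker tested, Acta1, was not called there (-0.25, edgeR adjusted p = 0.51). Markers of microglia (2 of 6 tested), endothelial cells (2 of 3 tested) and muscle (2 of 5 tested) summed to at most 9.46 CPM in any library, and no listed marker had 0 counts in every library. The part of these cell types in the results on members was not tested.

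In the authors' deposited table of their own comparison, 82 of 83 members were listed and 79 had a negative log2 fold change, with a median of -0.34. A positive value there runs with a higher level in Tlr7-/-, since it correlated with the fold changes fitted here at Pearson's r = 0.92 over 13783 genes. At a false discovery rate under 0.05, the authors' deposited table called 2 members lower and 0 higher, where it called 0.649% of its genes lower and 1.05% higher. The 2 were Ndufa4l2, at -1.54 (FDR 0.00142), and Cox7c, at -0.64 (FDR 0.0486), in the authors' deposited table.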

How the data were processed

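Whole-number counts per gene, per the file headers, were the main measurement, and the deposited gene table also holds the authors' RPKM and TPM values. The authors' own comparison by edgeR is deposited as well, as log2 fold changes, p-values and false discovery rates. Per the submitters' processing notes bcl2fastq, HISAT2, featureCounts and edgeR were used on the GRCm38.p6 build, with versions not given in the sources used here. Libraries were made with a stranded TruSeq mRNA kit, per the labels' protocols. The counting strand is not given, so reads of overlapping genes cannot be told apart. Of the members, 23 overlap another gene with counts, 21 on the opposite and 6 on the same strand.

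Genes were filtered with filterByExpr by genotype (13947 of 25814 kept), scaled by TMM and tested with edgeR 4.0.16 (glmQLFit with robust=TRUE, two-sided glmQLFTest) in R 4.3.3, over all genes, with Benjamini-Hochberg adjustment and a threshold of 0.05. One fit had 2 genotypes. Another had 3 groups (WT, Tlr7-/- replicate 1, Tlr7-/- replicates 2 and 3), split by the naming style in the labels, with spread pooled over groups. Standard errors are the log2 fold change over the square root of F. CPM are counts scaled to TMM library sizes, and floors cover counting error only. GC and length trends, by natural splines of 5 degrees of freedom, used the longest principal transcript in GENCODE M21. This was chosen after a first run with the longest transcript of any kind. Alternatives were DESeq2 1.42.0, limma-voom and limma 3.58.1 on log2(RPKM + pseudocount), other scalings and filters, a replicate block, naming style as a covariate, and each library left out. The fits were tested on simulated data. Figures used matplotlib 3.10.9.

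Members, lists, markers and roles were chosen with earlier results of these data known. Genes named are, per complex, those with the smallest p, the highest and lowest TPM, the catalytic subunits, all of complex II, the isoform sets, and 3 per list. Others (Ndufb7, Ndufs3, Ndufs8, Ndufs4, Ndufa9, Ndufb2, Ndufs6, Uqcrb, Uqcrc2, Atp5f1, Atp5h, Atp5j, Atp5o, Atp5s, mt-Atp6, mt-Co1, mt-Atp8, mt-Nd4l, Olig1, Pdgfra, Aqp4, Slc1a2, Slc1a3, Aldh1l1, C1qa, Csf1r, Myh7 and Acta1) were named after their values were seen. The values of 1 member are not reported here.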

Additional observations from a re-analysis of the deposited data

How the results depend on the processing

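Over all 6 libraries, 0 members and 0 genes were called under other scalings, at least 1 CPM in 3 libraries, limma-voom, limma on RPKM and the replicate block. Deviations of same-numbered libraries correlated at 0.274, -0.03 and 0.33. Tlr7-/- replicates 1 and 3 correlated best with the WT library of the same number, and Tlr7-/- replicate 2 with WT replicate 3 (0.0921). Deviations of 3 libraries from their own mean depend on one another, so these values cannot tell whether the numbers pair the libraries. With the replicate block the members' median was -0.32, against -0.31 without it. Genes called over all libraries numbered 1 with no filter beyond 1 count, 1754 by DESeq2 (18 members), 200 with naming style as a covariate (0 members, median -0.10) and 1 with GC and length trends removed by either transcript. The median member then was -0.0487, or -0.0541 with the longest transcript. Leaving out 1 library gave 0 to 6922 genes and 0 to 69 members, with calls only without Tlr7-/- replicate 1.

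For Tlr7-/- replicates 2 and 3, trend removal gave 26 members called (median -0.0879), or 36 (median -0.10, 29 lower and 7 higher) with the longest transcript, an alternative chosen after seeing the data. Limma on RPKM gave 76, with medians of -0.49 at each pseudocount (-0.492, -0.489 and -0.487). Leaving out 1 library gave 59 to 69 members, medians -0.44 to -0.37. For replicate 1, limma on RPKM with 0.1 or 0.5 called 1 member, Ndufa4l2, and trend removal moved the median to 0.0258, or 0.0178 with the longest transcript.

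Trend removal turned the sign of 28 members over all 6 libraries, 46 in replicate 1 and 29 in replicates 2 and 3. Among the members whose values were recomputed one by one (those of smallest p in a comparison and, for replicates 2 and 3, also complex II, isoform sets and catalytic subunits), the turned values were, over all 6 libraries, Atp5k (0.13), Cox7a2 (0.0879), Cox4i1 (0.11), Atp5g2 (0.0438), Uqcr10 (0.0193) and Sdhd (0.11). In replicate 1 they were Uqcr11 (0.0405), Uqcr10 (0.0738) and Sdhb (0.0405). In replicates 2 and 3 they were Atp5g2 (0.062), Cox4i1 (0.16), Cox6a2 (0.0043), Cox6b1 (0.14), Cox6b2 (0.16), Cox7a2 (0.13), Ndufa4 (0.0478), Ndufs1 (-0.12), Ndufv1 (0.14) and Sdhd (0.12). Sdha turned to 0.0358 with naming style as a covariate. Ndufs1, near 0, turned to -0.0031 with no filter and to -0.0709, -0.0703 and -0.0695 on RPKM with 0.1, 0.5 and 1 added. Leaving out 1 library, Ndufs1 ranged from -0.0269 to 0.041, and Cox7a1 from -0.35 (without Tlr7-/- replicate 3) to 0.758 (without replicate 2). The cause of these turns was not tested.

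In replicates 2 and 3, leaving out Tlr7-/- replicate 2 or WT replicate 1 or 2 lost the call of Ndufv1, and leaving out Tlr7-/- replicate 2 or WT replicate 1 or 3 that of Cox7b. Low counts limit Ndufa4l2, Cox4i2, Cox7a1 and Cox6b2.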
